A study of Mus musculus with 16 samples.

Results

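The 8 genes described here, Th, Ddc, Slc6a3, Slc18a2, Drd2, En1, Chrna6 and Slc10a4, make, package, take back or sense dopamine, or mark the midbrain neurons that release it. They were matched by symbol to Ensembl identifiers, and 8 of 8 were among the 15808 genes tested of the 55401 in each table. They are not a neutral sample. They were chosen by their log2 fold change between genotypes at ZT1, which was known when they were listed, and En1, Chrna6 and Slc10a4 were picked after those values had been seen. Genotype at ZT1 is therefore given as a description only, and among the members only the comparison of genotypes at ZT13, which uses other mice, was tested.

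RNA was sequenced from the hypothalamus of 16 male C57BL/6 mice aged 3 months, each giving 1 library. There were 4 wild type (WT) mice and 4 ASIC1a-/- mice, which lack the acid-sensing ion channel ASIC1a in all tissues, at ZT1, early in the light phase. Another 4 of each genotype were taken at ZT13, soon after lights off. Zeitgeber time (ZT) counts hours from lights on. Both genotypes came from crosses of heterozygous parents, and the paper describes the deletion as global. The hypothalamus was taken out whole, without a boundary to neighbouring regions that the labels or methods define. Values are CPM, counts scaled to a common library size with edgeR's TMM factors, from 34888522 to 42326259 expected counts per library (median 35750448). Levels are compared between different genes only in TPM, which divides by transcript length and then by the library total.

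Asic1, the gene that encodes ASIC1a, was at 104 ± 1.98 CPM in WT and 67.4 ± 2.41 CPM in ASIC1a-/- mice at ZT1 (SD, n = 4 each). At ZT13 it was at 99.2 ± 2.2 CPM in WT and 71 ± 0.807 CPM in ASIC1a-/- mice (SD, n = 4 each). Its log2 fold change was -0.62 at ZT1 (SE 0.0283, adjusted p = 3.49e-10) and -0.48 at ZT13 (SE 0.0282, adjusted p = 1.34e-08) in edgeR's quasi-likelihood test with Benjamini-Hochberg adjustment on the counts. The genotypes did not overlap at either time, but much of the signal remained in ASIC1a-/- mice. These values count reads over the whole gene and do not separate its transcripts. By RT-qPCR the paper reports that Asic1a mRNA was absent from ASIC1a-/- mice. In TPM, which divides by an estimated transcript length, the direction was the opposite, with 65.6 ± 2.93 TPM in WT and 76.9 ± 4.89 TPM in ASIC1a-/- mice at ZT1 and 66 ± 4.51 and 82.7 ± 1.21 TPM at ZT13 (SD, n = 4 each). The gene therefore separates the genotypes, but its lower level in ASIC1a-/- mice holds on the count scale only. Of 14 marker genes of the hypothalamus 13 passed the filter on low counts, and their summed level was 1144 to 1579 CPM. Kiss1, the remaining one, never exceeded 1 CPM.

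Dopamine is made from tyrosine in 2 steps, loaded into vesicles, released, sensed by receptors on the releasing cell and its targets, and taken back through a transporter in the cell membrane. The hypothalamus has dopamine neurons of its own, best known for restraining prolactin release from the pituitary. The ventral midbrain just behind it holds the larger groups of the substantia nigra and ventral tegmental area, which project to the striatum. Both kinds share the enzymes and the vesicle transporter, whereas En1 is a gene of the embryonic and adult midbrain and hindbrain. In RNA from whole tissue, fewer cells of a type and less RNA per cell cannot be told apart.

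Each of the 8 genes lies on a chromosome of its own in GRCm38. Th is on chromosome 7 (142892752 to 142931128, minus strand), Ddc on 11 (11814101 to 11898144, minus), Slc6a3 on 13 (73536747 to 73578672, plus) and Slc18a2 on 19 (59260896 to 59296012, plus). Drd2 is on chromosome 9 (49340627 to 49408177, plus), En1 on 1 (120602418 to 120607992, plus), Chrna6 on 8 (27403212 to 27413944, minus) and Slc10a4 on 5 (73006883 to 73012955, plus). Ddc and Slc18a2 each overlap a gene on the opposite strand, 1700042O10Rik and Gm29261, which did not exceed 0.0572 and 0.0284 CPM in any library.

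The promoters of the members were searched for short motifs as a description only, and whether the genes share control was not tested. Those of the rate-limiting enzyme Th and of the 3 genes of widely differing levels, Slc6a3, En1 and Slc10a4, are shown. Sequences are those of RefSeq on GRCm38.p6, 250 bases before to 50 after the start, read 5′ to 3′ along the gene, at chr7:142899946-142900245 (minus) for Th, chr13:73536497-73536796 (plus) for Slc6a3, chr1:120602237-120602536 (plus) for En1 and chr5:73006654-73006953 (plus) for Slc10a4. Capitals mark matches to the searched motifs, read on both strands.
Th: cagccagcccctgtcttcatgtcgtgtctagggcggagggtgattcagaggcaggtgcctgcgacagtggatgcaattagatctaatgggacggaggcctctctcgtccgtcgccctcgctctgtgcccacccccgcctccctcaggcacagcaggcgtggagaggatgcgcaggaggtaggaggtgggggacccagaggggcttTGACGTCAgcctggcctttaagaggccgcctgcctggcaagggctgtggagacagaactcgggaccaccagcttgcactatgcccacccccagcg
Slc6a3: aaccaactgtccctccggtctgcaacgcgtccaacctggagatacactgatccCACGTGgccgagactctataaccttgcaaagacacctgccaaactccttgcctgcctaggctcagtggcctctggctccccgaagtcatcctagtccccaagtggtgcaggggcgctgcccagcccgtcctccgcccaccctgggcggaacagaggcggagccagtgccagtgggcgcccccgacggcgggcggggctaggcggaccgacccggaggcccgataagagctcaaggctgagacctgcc
En1: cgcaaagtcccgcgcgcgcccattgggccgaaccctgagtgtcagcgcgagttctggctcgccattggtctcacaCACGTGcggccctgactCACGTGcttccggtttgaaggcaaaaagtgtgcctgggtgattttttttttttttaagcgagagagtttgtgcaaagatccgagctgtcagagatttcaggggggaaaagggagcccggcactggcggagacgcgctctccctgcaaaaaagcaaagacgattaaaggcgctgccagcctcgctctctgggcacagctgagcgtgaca
Slc10a4: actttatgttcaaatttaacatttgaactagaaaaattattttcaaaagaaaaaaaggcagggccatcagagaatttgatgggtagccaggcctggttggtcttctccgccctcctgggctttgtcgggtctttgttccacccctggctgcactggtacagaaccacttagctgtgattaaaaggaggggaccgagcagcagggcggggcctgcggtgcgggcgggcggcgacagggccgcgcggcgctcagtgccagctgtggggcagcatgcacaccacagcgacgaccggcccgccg
The capitals in Th are the cyclic AMP response element TGACGTCA at position -45 from the start, and those in Slc6a3 (position -197) and En1 (positions -175 and -158) are the E-box CACGTG. Entries were found for 7 of 8 members, Chrna6 being the member named only. Among the other members, TGACGTCA was also in Slc18a2 (position -4), and 1 of the 2 entries of Ddc held AAAGGTCA, a site of NR4A factors, and TATAAA, the TATA box, overlapping each other. Of the 32851 promoters of the same length, TGACGTCA was in 1.79%, CACGTG in 7.15%, AAAGGTCA in 1.51% and TATAAA in 13.6%. TAATTA, a homeodomain core, was in 5.29% and in no member's window. No motif was found in Slc10a4 or Drd2. GC content was 57% in En1, 57.3% in Slc10a4, 64.3% in Th and 66% in Slc6a3, against a median of 52.7% over all promoters. It was 64% in Slc18a2, 70.3% in Drd2, and 54.3% and 41.3% in the 2 entries of Ddc, the last of which was below that median.

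Across all libraries the 8 genes ranged from near absent to abundant. Per length, the median was highest for Ddc (68 TPM) and Th (52.5 TPM), followed by Slc18a2 (36.5 TPM), Drd2 (17.8 TPM) and Slc6a3 (17.5 TPM). Slc10a4 (7.28 TPM), Chrna6 (6.54 TPM) and En1 (0.49 TPM) were lowest. This order held for medians only, since Slc6a3 ran from 3 to 99.8 TPM and its highest library was close to the highest of Th (118 TPM) and Ddc (115 TPM).

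Th encodes tyrosine hydroxylase, the rate-limiting enzyme that turns tyrosine into L-DOPA. At ZT1 its level in replicates 1 to 4 was 71.0, 36.2, 39.5 and 33.6 CPM in WT mice and 63.2, 102, 56.2 and 104 CPM in ASIC1a-/- mice. At ZT13 it was 55.4, 36.4, 36.5 and 30 CPM in WT and 46.9, 40.3, 50.2 and 43.5 CPM in ASIC1a-/- mice. WT replicate 1 stood above the other WT mice at both times, and at ZT1 it was above ASIC1a-/- replicates 1 and 3, so the genotypes overlapped. Ddc encodes the decarboxylase that makes dopamine from L-DOPA and also serves the serotonin pathway. It was at 77.4, 57.4, 58.5 and 53.5 CPM in WT and 72.1, 106, 72.4 and 108 CPM in ASIC1a-/- mice at ZT1. At ZT13 Ddc was at 69.4, 56.5, 57.6 and 54.6 CPM in WT and 63.0, 54.0, 70.1 and 61.5 CPM in ASIC1a-/- mice. The same libraries were high as for Th, over a narrower range.

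Slc6a3 encodes the dopamine transporter, which returns released dopamine to the neuron and is the most selective of these markers for dopamine neurons. Its level at ZT1 was 95.6, 7.59, 21.7 and 8.61 CPM in WT and 62.8, 178, 64.7 and 157 CPM in ASIC1a-/- mice. At ZT13 it was 54.5, 6.74, 15.9 and 4.98 CPM in WT and 37.7, 13.6, 46.4 and 16.6 CPM in ASIC1a-/- mice. Libraries of the same genotype and time thus differed several-fold, and the highest library exceeded the lowest by 35.9-fold. Slc18a2, the vesicular monoamine transporter that loads dopamine and other monoamines into synaptic vesicles, moved the same way on a raised floor. It was at 90.5, 60.2, 65.9 and 53.3 CPM in WT and 77.2, 114, 85.3 and 113 CPM in ASIC1a-/- mice at ZT1, and at 77.1, 60.7, 62.3 and 62.1 CPM in WT and 71.4, 64.0, 76.4 and 60.9 CPM in ASIC1a-/- mice at ZT13. Slc10a4 encodes a protein of synaptic vesicles found in monoamine and cholinergic neurons. Its level was 12.3, 3.96, 4.39 and 3.19 CPM in WT and 8.11, 17.7, 9.38 and 18.6 CPM in ASIC1a-/- mice at ZT1. At ZT13 Slc10a4 was at 6.97, 2.84, 4.88 and 3.31 CPM in WT and 7.22, 3.53, 6.78 and 3.99 CPM in ASIC1a-/- mice. Again WT replicate 1 at ZT1 lay above ASIC1a-/- replicates 1 and 3.

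Drd2, the D2 receptor, sits on dopamine neurons as an autoreceptor and on many cells that receive dopamine. It varied least, at 24.7, 21.6, 23.2 and 21.0 CPM in WT and 23.4, 32.4, 24.5 and 31.1 CPM in ASIC1a-/- mice at ZT1. At ZT13 it was at 23.0, 21.3, 19.4 and 17.9 CPM in WT and 22.4, 18.8, 21.2 and 21.3 CPM in ASIC1a-/- mice. Even here ASIC1a-/- replicates 2 and 4 at ZT1 were the highest libraries. Chrna6 encodes the alpha6 subunit of nicotinic acetylcholine receptors, which midbrain dopamine neurons carry on their terminals. It was at 19.8, 6.69, 8.13 and 5.19 CPM in WT and 15, 30.2, 13.7 and 34.1 CPM in ASIC1a-/- mice at ZT1, and at 11.6, 4.18, 6.78 and 4.09 CPM in WT and 10.4, 6.70, 10.8 and 6.74 CPM in ASIC1a-/- mice at ZT13. En1, the homeodomain factor engrailed 1 that midbrain dopamine neurons need to survive, was scarce. It was at 1.56, 0.112, 0.506 and 0.456 CPM in WT and 1.34, 4.09, 1.25 and 3.52 CPM in ASIC1a-/- mice at ZT1. At ZT13 En1 was at 1.17, 0.171, 0.227 and 0.0834 CPM in WT and 0.736, 0.170, 1.13 and 0.222 CPM in ASIC1a-/- mice. These levels stood on 3 to 146 counts, so counting error was part of the spread of En1 in the low libraries, while its high libraries were those of the other genes.

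**Figure D1:**
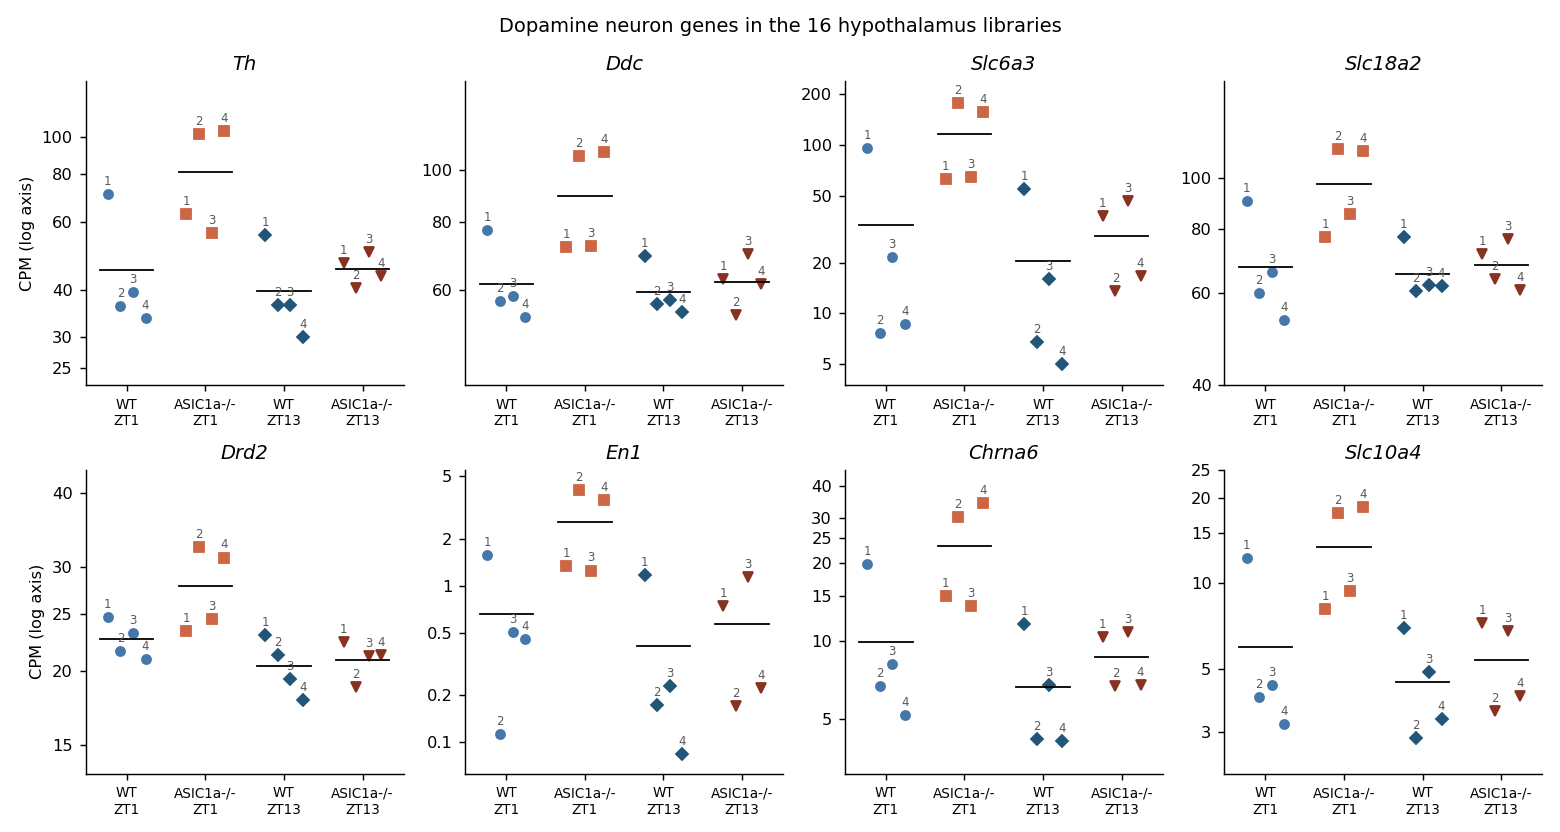
Level of each gene in CPM on a log axis in the 16 libraries, by genotype and time. Each symbol is 1 mouse with its replicate number above it, and the black line is the mean of the group. In every panel ASIC1a-/- replicates 2 and 4 and WT replicate 1 at ZT1 are the 3 highest libraries.

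The same 3 libraries, ASIC1a-/- replicates 2 and 4 and WT replicate 1 at ZT1, were the highest for 8 of 8 genes, and adding ASIC1a-/- replicates 1 and 3 at ZT1 gave the 5 highest for 8 of 8. At the lower end, WT replicates 2 and 4 at ZT13 and WT replicate 4 at ZT1 were each among the 4 lowest libraries for 7 of the 8 genes. WT replicate 2 at ZT1 was among them for 5 genes and ASIC1a-/- replicate 2 at ZT13 for 4. High and low libraries therefore stood side by side within 1 group.

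The spread within groups of the 8 genes was wide for this data set. The SD of log2 CPM within groups, pooled over the 4 groups, was 1.28 for Slc6a3 and 1.2 for En1, which ranked 80 and 90 among the 15808 tested genes. It was 0.669 for Chrna6, 0.654 for Slc10a4, 0.391 for Th, 0.243 for Slc18a2, 0.229 for Ddc and 0.16 for Drd2, against a median of 0.0807 over all tested genes. All 8 members exceeded that median. The ratio of the highest to the lowest library was 49 for En1, 8.34 for Chrna6, 6.53 for Slc10a4, 3.47 for Th, 2.13 for Slc18a2, 2.02 for Ddc and 1.81 for Drd2.

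Averaged over the 4 mice of a group, ASIC1a-/- mice at ZT1 had the highest mean and WT mice at ZT13 the lowest for 8 of 8 genes. Slc6a3 was at 33.4 ± 42 CPM in WT and 116 ± 60.7 CPM in ASIC1a-/- mice at ZT1, and at 20.5 ± 23.1 and 28.6 ± 16 CPM at ZT13 (SD, n = 4 each). Th was at 45.1 ± 17.4 and 81.4 ± 25.3 CPM at ZT1, and at 39.6 ± 11 and 45.2 ± 4.28 CPM at ZT13, in the same order of genotypes. The place of ASIC1a-/- mice at ZT1 is part of what chose the genes and is given as a description. Among the other 3 groups, the gap between the first and the next exceeded the larger of their SDs for Drd2 alone (1.7 CPM against an SD of 1.65), and that between the lowest pair did so for none.

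At ZT1, in the contrast with which the members were chosen, the log2 fold change of ASIC1a-/- against WT was 1.94 for En1 (SE 0.667), 1.79 for Slc6a3 (SE 0.707), 1.22 for Chrna6 (SE 0.386) and 1.17 for Slc10a4 (SE 0.384). It was 0.85 for Th (SE 0.232), 0.54 for Ddc (SE 0.136), 0.53 for Slc18a2 (SE 0.143) and 0.30 for Drd2 (SE 0.0961). These are descriptions without a test; 0.0127% of all genes tested passed the threshold in that comparison. The genotypes overlapped for 8 of 8 genes, each time through WT replicate 1, which lay above the lowest ASIC1a-/- mouse. Without that mouse the value for Slc6a3 was 3.19 and that for Th 1.16.

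At ZT13 none of the 8 genes passed the test between genotypes, where 0.101% of all genes did. The largest log2 fold changes of ASIC1a-/- against WT were those of Slc6a3 (0.49, SE 0.761, 95% interval -1.11 to 2.09) and En1 (0.49, SE 0.801, interval -1.20 to 2.17), and those of Chrna6 (0.39, SE 0.42, interval -0.50 to 1.27) and Slc10a4 (0.26, SE 0.41, interval -0.60 to 1.13) came next. Th was at 0.19 (SE 0.238, interval -0.31 to 0.69), Ddc at 0.06 (SE 0.138, interval -0.23 to 0.35), Slc18a2 at 0.06 (SE 0.145, interval -0.25 to 0.36) and Drd2 at 0.04 (SE 0.0987, interval -0.17 to 0.25). The adjusted p was 1 for each by edgeR's quasi-likelihood test, and at an unadjusted p under 0.05 the count was 0 with edgeR, DESeq2 and limma-voom. The intervals of Ddc, Slc18a2 and Drd2 left room for small differences only, whereas those of Slc6a3 and En1 reached past a 4-fold difference. The estimates were above 0 for 8 genes, with a median of 0.23. That sign was read from the same 8 mice each time. Leaving out WT replicate 1, the highest WT mouse, moved Slc6a3 to 1.65, En1 to 1.83 and Th to 0.40, and none passed the test. Leaving out ASIC1a-/- replicate 3 moved En1 to -0.12, Ddc to -0.00021 and Slc18a2 to -0.0013, and leaving out WT replicate 4 moved Drd2 to -0.02.

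**Figure D2:**
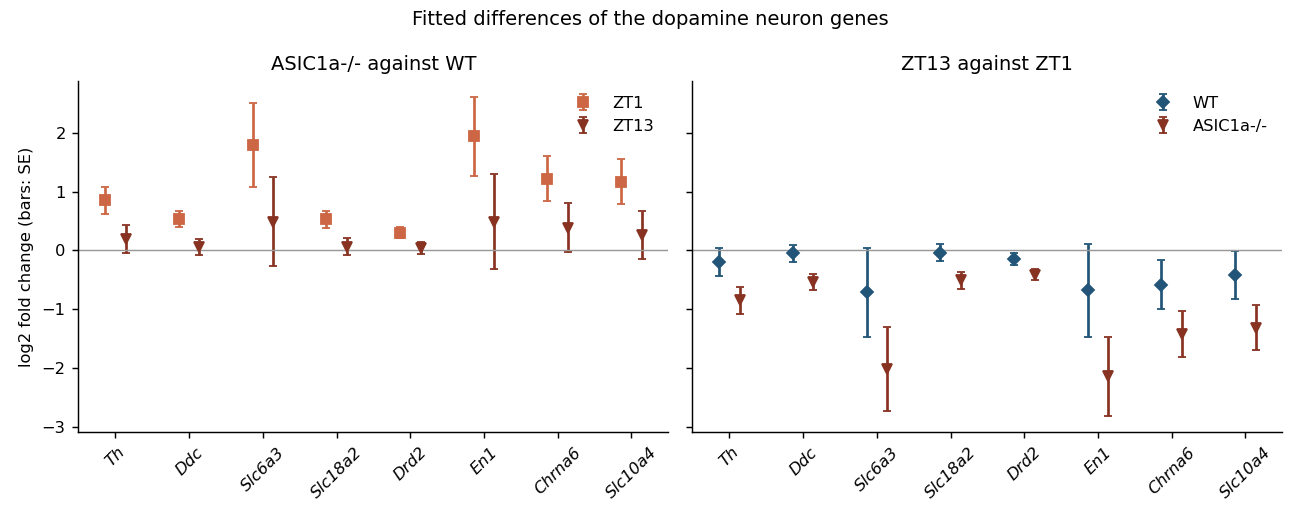
Fitted log2 fold change of each gene with its SE (bars), ASIC1a-/- against WT at ZT1 and ZT13 (left) and ZT13 against ZT1 in WT and ASIC1a-/- mice (right). The ZT13 values in the left panel lie between 0.04 and 0.49, below the ZT1 values of 0.30 to 1.94 for the same genes. The genes were chosen by their ZT1 values, so nothing is read from this difference between the times. The right panel shares the ZT1 mice with the left.

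From ZT1 to ZT13 the 8 genes were lower on average in both genotypes. In ASIC1a-/- mice the log2 fold change of ZT13 against ZT1 was -2.14 for En1 (SE 0.673), -2.01 for Slc6a3 (SE 0.713), -1.42 for Chrna6 (SE 0.389), -1.31 for Slc10a4 (SE 0.386) and -0.85 for Th (SE 0.231). It was -0.53 for Ddc (SE 0.136), -0.51 for Slc18a2 (SE 0.143) and -0.41 for Drd2 (SE 0.0962). The ASIC1a-/- mice at ZT1 that chose the members enter every one of these values, so they carry no test, and 11.3% of all genes tested passed that comparison. In WT mice the values were smaller, -0.71 for Slc6a3 (SE 0.758), -0.68 for En1 (SE 0.795), -0.58 for Chrna6 (SE 0.418), -0.41 for Slc10a4 (SE 0.409), -0.19 for Th (SE 0.238), -0.15 for Drd2 (SE 0.0985), -0.05 for Ddc (SE 0.138) and -0.04 for Slc18a2 (SE 0.145), where 13.3% of all genes passed. The values of Chrna6 and Drd2 exceeded their SE, and those of the other 6 genes did not. Without WT replicate 1 at ZT1 the sign turned for 6 genes, among them Slc6a3 (0.69) and Th (0.12).

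Whether the genes move together was tested among the mice at ZT13, which had not served to choose them. Over those 8 libraries, each centred on its group mean, log2 CPM of Th was correlated with that of Slc6a3 (r = 0.938), En1 (r = 0.926), Chrna6 (r = 0.905), Ddc (r = 0.89), Drd2 (r = 0.84), Slc18a2 (r = 0.834) and Slc10a4 (r = 0.785). In an exact two-sided permutation test within groups the raw p was 0.00174 for Ddc, Slc6a3, En1 and Chrna6, the smallest that its 576 arrangements allow, and 0.0191 for Slc18a2, 0.0243 for Drd2 and 0.0295 for Slc10a4. Adjusted over the 7 relations by the Benjamini-Hochberg method, the permutation p was 0.00304 for the first 4 genes and 0.0267, 0.0284 and 0.0295 for the others. Spearman's rho was 0.976 for Ddc, 0.952 for Slc6a3 and Chrna6 and 0.929 for En1 (adjusted permutation p = 0.00405 for the first 3 and 0.00608 for En1). It was 0.762 for Drd2 and Slc10a4 (adjusted permutation p = 0.0648) and 0.667 for Slc18a2 (adjusted permutation p = 0.0938), which did not pass the threshold. Leaving out WT replicates 4 and 1, the libraries farthest from the median of Th, left r at 0.969 for Ddc, 0.963 for En1, 0.857 for Slc18a2, 0.841 for Slc6a3, 0.785 for Slc10a4, 0.74 for Chrna6 and 0.64 for Drd2. With those 6 libraries the exact test has 48 arrangements and no relation passed (adjusted permutation p = 0.0972 to 0.271). Without WT replicate 1 alone 2 of 7 passed. Without WT replicate 4, or ASIC1a-/- replicate 1, 2 or 3, 5 of 7 passed, and without WT replicate 3 6 of 7 passed, while r stayed above 0 in each case. Over all 16 libraries the 28 pairs among the 8 genes had r between 0.727 and 0.975 (median 0.897), a description since it includes the mice that chose the members.

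Although they rose and fell together, the 8 genes differed in how much of their level stayed when Slc6a3 was low. A straight line of each gene's CPM on that of Slc6a3 over the 16 libraries, with r from 0.947 to 0.99, gave the level at which Slc6a3 would be 0. En1 had no such remainder, its intercept being -0.0491 CPM (SE 0.0637). For Chrna6 it was 3.95 CPM (SE 0.554), which is 11.6% of its highest library and 42.6% of its median library, and for Slc10a4 2.75 CPM (SE 0.268), or 14.8% and 47.2%. For Th it was 31.9 CPM (SE 1.15), or 30.7% of the highest and 70.6% of the median library. Ddc (52.7 CPM, SE 0.987, 48.8% and 84.7%), Slc18a2 (58 CPM, SE 1.1, 50.9% and 84.5%) and Drd2 (19.5 CPM, SE 0.452, 60.2% and 88.6%) kept the largest shares. On either base the share was lowest for En1, then Chrna6, Slc10a4 and Th. At ZT13 alone, where no library had been used to choose the genes, the intercepts were 32.2 CPM for Th, 53.1 CPM for Ddc, 58.1 CPM for Slc18a2, 19 CPM for Drd2, -0.0917 CPM for En1, 3.94 CPM for Chrna6 and 2.75 CPM for Slc10a4. Each was within 1 CPM of that from all libraries. Per length, the intercepts over all libraries were 58 TPM for Ddc, 37.2 TPM for Th, 30.8 TPM for Slc18a2, 15.8 TPM for Drd2, 3.37 TPM for Slc10a4, 2.78 TPM for Chrna6 and -0.0347 TPM for En1. These lines are descriptions over libraries of different groups.

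**Figure D3:**
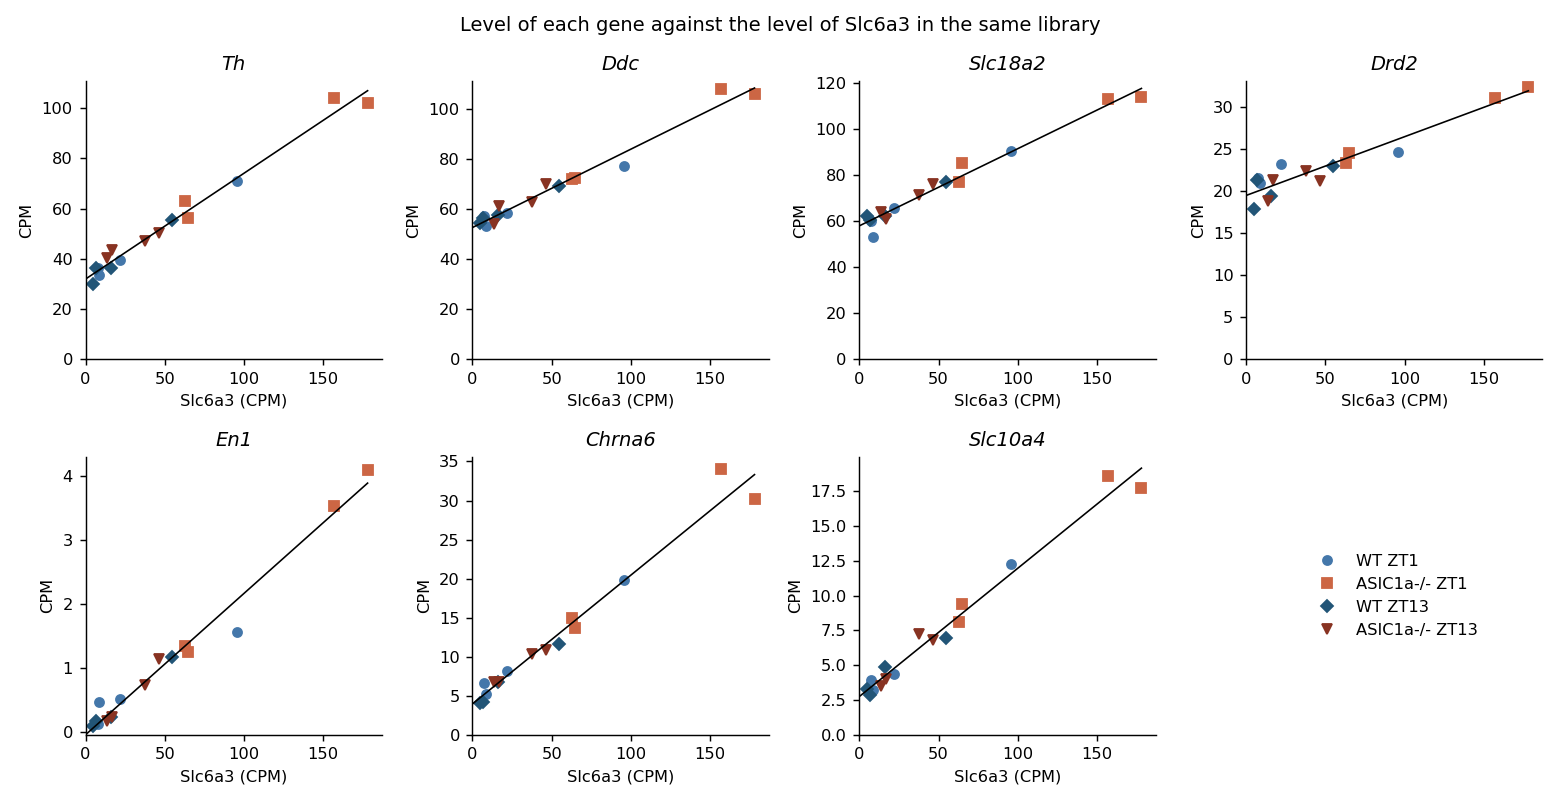
CPM of each gene against CPM of Slc6a3 in the same library (linear axes), with symbols for the 4 groups and a straight line over all 16 libraries. The line has r from 0.947 for Drd2 to 0.99 for Th, and it starts near 0 for En1 and at 31.9 CPM for Th, 52.7 CPM for Ddc and 58 CPM for Slc18a2. Against a line from the ZT13 libraries alone, 7 of 8 ZT1 libraries lay higher for Drd2 (median 1.36 CPM, residual SD at ZT13 1.3 CPM). For Chrna6 6 of 8 did (median 1.15 CPM, residual SD 0.672 CPM), and for the other genes 2 to 4.

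Among the 15732 other genes ranked, those most like the 8 in their variation within groups were Ret (r = 0.989 with the members' mean pattern over 16 libraries), the signalling receptor for glial cell line-derived neurotrophic factor, Gucy2c (r = 0.981), a guanylyl cyclase of midbrain dopamine neurons and gut, and Chrnb3 (r = 0.979), a nicotinic receptor subunit. Aldh1a1 (r = 0.94), an aldehyde dehydrogenase of ventral nigral neurons, was next. These 4 came from a list of midbrain dopamine neuron genes. That list was made with earlier results of these data known, and the ranking includes the ZT1 mice that chose the members. Their place in the list is therefore a description and no independent evidence. Chrnb3 lies 3481 bases from Chrna6 on chromosome 8 (27368711 to 27399730, plus strand) and ran from 1.39 to 12.8 CPM. The next 6 were Sv2c (r = 0.926), Ckap5 (r = 0.92), Ndnf (r = 0.912), Cnpy1 (r = 0.905), Tank (r = 0.898) and Chrna5 (r = 0.886). Cnpy1, a gene of the boundary between midbrain and hindbrain, ran from 0.0855 to 2.18 CPM, close to the levels of En1, whereas Ckap5 and Tank varied by 1.07-fold and 1.15-fold only. Likeness was high in few genes, with r over 0.9 for 8 genes and over 0.8 for 36.

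**Figure D4:**
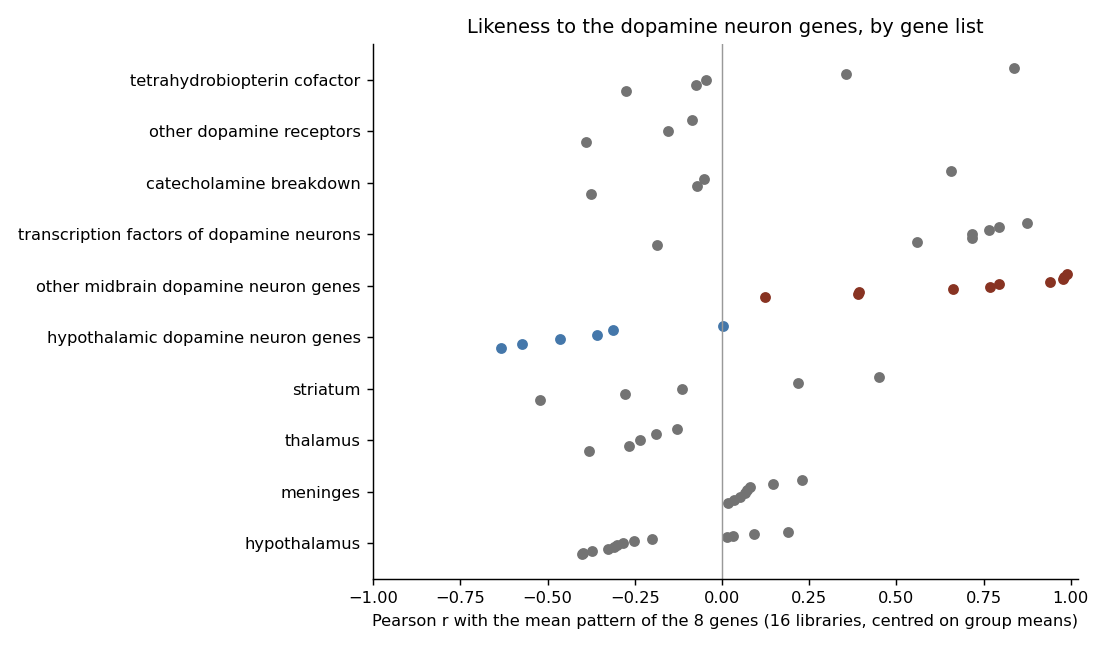
Pearson r of each gene (dots) with the mean pattern of the 8 genes, over 16 libraries centred on group means, by gene list. Midbrain dopamine neuron genes (dark red) lie at 0.123 to 0.989 and hypothalamic dopamine neuron genes (blue) at -0.635 to 0.00197.

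Other genes of dopamine neurons, in lists made with earlier results of these data known, divided along the same line. The r values include the ZT1 mice that chose the members and are a description only. The 10 midbrain genes had a median r of 0.781 with the members (0.123 to 0.989), and transcription factors of dopamine neurons 0.717 (-0.187 to 0.875), led by Nr4a2, the nuclear receptor that specifies dopamine identity. The 6 genes of hypothalamic dopamine neurons, among them Prlr, Dlx1, Dlx5, Isl1 and Onecut3, had a median of -0.41 (-0.635 to 0.00197). Summed, the midbrain list was at 330 to 443 CPM in WT and 394 to 554 CPM in ASIC1a-/- mice at ZT1, and at 289 to 390 and 321 to 368 CPM at ZT13. The hypothalamic list was at 102 to 112 and 105 to 113 CPM at ZT1, and at 118 to 126 and 115 to 120 CPM at ZT13, higher in every ZT13 library than in any ZT1 library. Log2 of the sum, centred on groups, had r = 0.871 with Slc6a3 for the midbrain list and -0.693 for the hypothalamic list. Enzymes of the cofactor tetrahydrobiopterin had a median r of -0.0452, although Gch1, the entry enzyme of that synthesis, was at 0.837. The other dopamine receptors had a median of -0.156 (-0.39 to -0.0864). Enzymes of catecholamine breakdown had a median of -0.0613, with a range from -0.375 to 0.658.

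**Figure D5:**
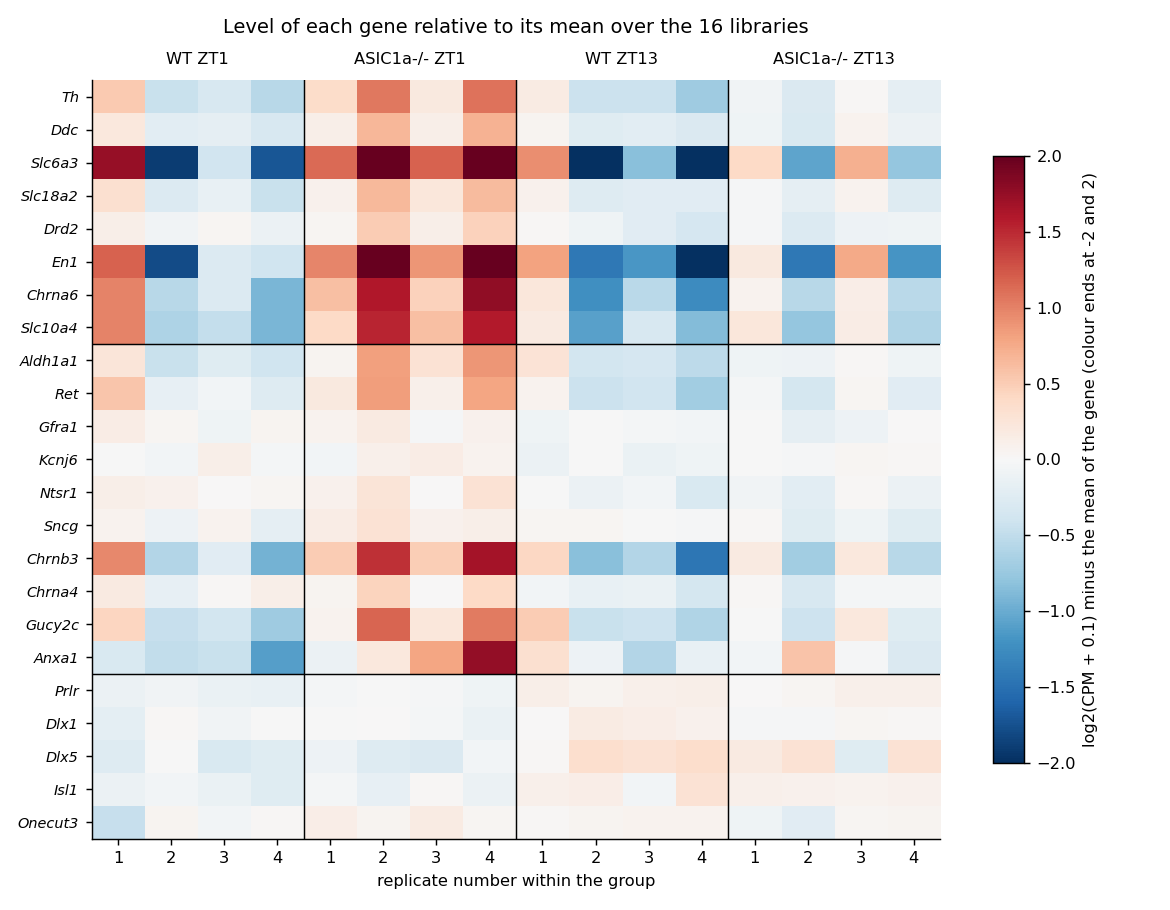
Heat map of log2(CPM + 0.1) minus the mean of the gene over the 16 libraries, for the 8 genes (top), 10 midbrain dopamine neuron genes (middle) and 5 hypothalamic dopamine neuron genes (bottom). Columns are the mice by group, and colours end at -2 and 2. WT replicate 1 and ASIC1a-/- replicates 2 and 4 at ZT1 are red or light red for Slc6a3, En1, Chrna6, Slc10a4 and Th and for Ret, Chrnb3, Gucy2c and Aldh1a1. Drd2 is pale in WT replicate 1, as is most of the bottom block.

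In these 6 lists 35 of 39 genes were tested, and none passed between genotypes at ZT1 or ZT13, nor in the interaction of genotype and time, for which 0.0190% of all genes passed. At an unadjusted p under 0.05 the counts were 9, 4 and 4 with edgeR's quasi-likelihood test, 8, 5 and 2 with DESeq2, and 9, 5 and 4 with limma-voom. Over all 15808 genes the edgeR counts at that p were 1107, 591 and 618. Of the cofactor enzymes at ZT13, Qdpr had a log2 fold change of 0.11 (SE 0.053) and Gch1 of 0.21 (SE 0.132), with an adjusted p of 1 each. At ZT1 the 10 midbrain genes were above 0 in every case (median log2 fold change 0.33), and at ZT13 8 of 10 were (median 0.09). That sign was not particular to them. At ZT1 all 6 hypothalamic genes, all 7 tested transcription factors and all 5 tested cofactor enzymes were above 0 too. In all, 31 of 35 genes were, against 50.1% of all genes tested. At ZT13 it was 23 of 35, against 50%. The ZT1 comparison chose the members, whose pattern several of these genes follow, so its signs are a description only.

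From ZT1 to ZT13 in ASIC1a-/- mice, 11 of the 35 genes passed (31.4%, against 11.3% of all genes), 2 higher and 9 lower. The ASIC1a-/- mice at ZT1 that chose the members enter this contrast too, and several of these genes follow the members' pattern, so the excess over the background carries the same selection and is no independent evidence. Of the 10 midbrain genes 6 fell: Sncg, a synuclein (log2 fold change -0.30, SE 0.0653, adjusted p = 0.0071), Ntsr1, the neurotensin receptor (-0.26, SE 0.0671, adjusted p = 0.0186), Ret (-0.65, SE 0.191, adjusted p = 0.0341), Aldh1a1 (-0.61, SE 0.185, adjusted p = 0.0411), Chrna4, a nicotinic receptor subunit named here after its value was seen (-0.33, SE 0.1, adjusted p = 0.042), and Chrnb3 (-1.31, SE 0.409, adjusted p = 0.0464). The factors En2, the other engrailed gene (-0.87, SE 0.271, adjusted p = 0.0464), and Sox6 (-0.19, SE 0.038, adjusted p = 0.00418) fell. Drd1, the D1 receptor (0.38, SE 0.0986, adjusted p = 0.0171), and Prlr, the prolactin receptor of hypothalamic dopamine neurons (0.11, SE 0.033, adjusted p = 0.0397), rose. This count depended on single mice: it was 3 without ASIC1a-/- replicate 2 at ZT1, 4 without replicate 4 at ZT1 and 3 without replicate 2 at ZT13.

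In WT mice 5 of the 35 passed (14.3%, against 13.3% of all genes), a share near the background, and none of the 10 midbrain genes was among them. Of the hypothalamic list 4 of 6 rose at ZT13, Prlr (0.21, SE 0.0331, adjusted p = 0.000457), Isl1 (0.25, SE 0.0587, adjusted p = 0.00841), Dlx5 (0.46, SE 0.123, adjusted p = 0.0183) and Dlx1 (0.16, SE 0.046, adjusted p = 0.0287). Since no gene passed the interaction, the time differences are not shown to differ between genotypes.

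Markers of other cells and regions were read beside the 8 genes. All 5 noradrenaline and adrenaline markers (among them Dbh and Slc6a2) and all 3 serotonin markers (Tph2, Slc6a4 and Fev) stayed under 1 CPM in each library, with sums of 0.111 to 0.49 CPM and 0.335 to 0.867 CPM. Hdc, the histamine enzyme, which shares Slc18a2 as its vesicle transporter, was at 67.8 to 88.2 CPM. Of 6 other midbrain and hindbrain markers 4 never exceeded 1 CPM, Hoxb3 was at 0 in every library, and the sum of 2.25 to 3.56 CPM had r = 0.562 with Slc6a3. Of these 6, the ones tested were Pax7 (r = -0.286 with the members' mean pattern) and Chrnb4 (r = 0.0936). Gata3 and Pou4f1, too scarce to be tested, had their highest mean in ASIC1a-/- mice at ZT1, as the members did. Gata3 was at 0.517 ± 0.371 CPM there (SD, n = 4) and at means of 0.198 to 0.228 CPM in the other groups. Pou4f1 was at 0.307 ± 0.251 CPM there (SD, n = 4) and at means of 0.0276 to 0.127 CPM in the other groups. Striatal markers, whose neurons carry Drd2, summed to 74 to 85.4 CPM (r = 0.0146 with Slc6a3). Meningeal markers reached 181 CPM in ASIC1a-/- replicate 4 at ZT1 and 102 CPM in ASIC1a-/- replicate 2 at ZT13 and lay between 28 and 59.7 CPM elsewhere, with r = -0.0129. Thalamic markers were at 71 to 132 CPM (r = -0.323), highest in WT replicate 4 at ZT1. Markers of the mammillary and subthalamic region, between hypothalamus and midbrain, were at 46.8 to 60.5 CPM (r = 0.459), and those of the anterior pituitary, whose lactotrophs carry Drd2, at 0.534 to 41.3 CPM (r = -0.12). The summed midbrain dopamine list moved with the 8 genes, though Kcnj6 (r = 0.123), Gfra1 (r = 0.389) and Anxa1 (r = 0.394) in it followed them less closely. The part of these markers in the genotype and time differences was not tested.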

How the data were processed

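Hypothalamus RNA of 16 mice was sequenced by the authors as 100-bp paired ends. Per the labels and methods, reads were trimmed with cutadapt 1.8, aligned with STAR 2.5.3a and quantified with RSEM 1.2.31, and the submitters' notes name GRCm38 and mm9 as builds. HTSeq 0.9.1 is also named there. The methods and the labels name different kits for extraction and library preparation. The deposited expected counts, which RSEM splits between genes that share reads, were rounded to whole numbers (4.85% were not whole), and the deposited TPM, divided by transcript length by the authors, were used as given. Totals were 34888522 to 42326259 per library, so that mice, 4 per group, and not depth set the precision for all but En1. The labels give no sequencing batch.

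Genes over 1 CPM in at least 1 library (15808) were fitted with edgeR 4.0.16 (R 4.3.3, TMM, quasi-likelihood F test, 1 mean per group, 16 libraries), with Benjamini-Hochberg adjustment and a threshold of 0.05. The biological coefficient of variation was 6.06%. CPM were TMM-scaled, with 2 as the prior count of log2 CPM. On data simulated for the comparison of genotypes at ZT13 with 15808 genes, the test recovered 88.2% of genes changed by 0.5 (log2), 95.5% at 1 and 98.5% at 2, with calls in 0.0582% of unchanged genes. These rates are for genes drawn from the whole table and do not apply to members of wide spread such as Slc6a3 and En1. Relations used exact permutation within groups (scipy 1.17.1). Libraries were grouped by their labels, and no 2 of a group agreed within counting error (chi-square over its degrees of freedom 3.18 to 11.3 over 24 pairs). The labels name replicates without saying whether litter or day was shared.

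The members, gene lists and tests were chosen with earlier results of these data known. Named genes were the members, Asic1, pathway genes past the threshold between genotypes, up to 4 per list past it between times and otherwise the 2 per list of smallest p at ZT13, and the 10 genes most like the members. Alternatives were no filter, edgeR's own filter, DESeq2 size factors, library size only, DESeq2 1.42.0, limma-voom (limma 3.58.1), log2(TPM + 1), log2(TPM + 0.1), unrounded counts, a replicate block, a fit of only the 8 libraries in a comparison, each library left out, and both libraries high in meningeal markers left out. Slc6a3 as a covariate and lines from 1 time point were added after seeing the data. Proteins were not analysed here, and single values of a few listed genes are not reported here. Figures were drawn with matplotlib 3.10.9.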

Additional observations from a re-analysis of the deposited data

Results flagged for a closer look

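Within the groups of 4 mice, 12 of 124 groups examined (4 groups for each of 31 genes, 9.68%) held 1 mouse far from the other 3 by Dixon's criterion. For a single group chance gives about 1 in 20. The 124 groups reuse the same mice, and the genes include the members and those picked for following their pattern. The share is therefore a description and no measure of an excess. WT replicate 1 at ZT1 stood out for Th (71 CPM, others 33.6 to 39.5 CPM), Slc6a3 (95.6 CPM, others 7.59 to 21.7 CPM) and Slc10a4 (12.3 CPM, others 3.19 to 4.39 CPM). It also stood out for Ndnf (20.9 CPM, others 14.9 to 15.2 CPM), Cnpy1 (0.782 CPM, others 0.0855 to 0.169 CPM) and Tank (23.7 CPM, others 21.3 to 21.6 CPM), genes named for their likeness to the members. WT replicate 1 at ZT13 stood out for Slc18a2 (77.1 CPM, others 60.7 to 62.3 CPM), En1 (1.17 CPM, others 0.0834 to 0.227 CPM), Gucy2c (4.83 CPM, others 2.17 to 2.49 CPM) and Ckap5 (257 CPM, others 247 to 248 CPM). Each library came from its own mouse, so these are different mice. ASIC1a-/- replicate 1 at ZT13 was high for En2 (0.926 CPM, others 0.636 to 0.65 CPM), and ASIC1a-/- replicate 3 at ZT13 for Aldh1a1 (101 CPM, others 93 to 94 CPM). In all 12 cases the mouse was higher than the rest of its group.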

How the results depend on the processing

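No member passed the test between genotypes at ZT13 under any of 29 alternatives (adjusted p = 0.949 to 1), and leaving out each library in turn gave counts of 0 to 0. Pathway genes past the threshold stayed at 0 at ZT13 and in the interaction, and at ZT1 were 2 without a filter on low counts (Aldh1a1 and Anxa1), where other genes are tested. In WT mice between times, 5 genes became 3 with log2(TPM + 1), 3 with log2(TPM + 0.1) and 3 to 7 when a library was left out (3 without WT replicate 3 at ZT1 or WT replicate 4 at ZT13). In ASIC1a-/- mice 11 genes became 1 with Slc6a3 as a covariate, 2 with log2(TPM + 1), 2 with log2(TPM + 0.1), 7 with only the 8 libraries compared, 4 without both libraries high in meningeal markers, and 3 to 12 when a library was left out (6 without ASIC1a-/- replicate 1, 3 or 4 at ZT13). The cause was not tested. With the replicate number as a block this count was 7, and the block changed no other count by over 1.5 times. Same-numbered libraries had correlations of -0.316 to 0.217 in their deviations from group means, 4 of 24 over 0.1. These values over all genes cannot tell whether same-numbered mice shared a litter or day, which the labels do not state.

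Slc6a3 is itself a member chosen by its ZT1 difference, so nothing is read from the fit that has it as a covariate. Between genotypes at ZT13, it turned Th (-0.04), Ddc (-0.08), Slc18a2 (-0.10), Drd2 (-0.05), En1 (-0.04) and Slc10a4 (-0.16). Leaving out each library gave log2 fold changes of -0.00021 to 0.15 for Ddc, -0.0013 to 0.15 for Slc18a2, -0.02 to 0.10 for Drd2 and -0.12 to 1.83 for En1. Between times in WT mice the covariate turned Ddc (0.04) and Slc18a2 (0.07), and leaving out each library gave -0.40 to 0.12 for Th, -0.14 to 0.08 for Ddc, -1.87 to 0.69 for Slc6a3, -0.14 to 0.13 for Slc18a2, -2.03 to 0.20 for En1 and -0.70 to 0.22 for Slc10a4.

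The relations with Th at ZT13 kept their sign in 91 of 91 values and their side of the threshold in 70. Leaving out each library gave r of 0.815 to 0.944 for Ddc, 0.849 to 0.965 for Slc6a3, 0.585 to 0.906 for Slc18a2, 0.74 to 0.913 for Drd2, 0.882 to 0.949 for En1, 0.742 to 0.951 for Chrna6 and 0.649 to 0.83 for Slc10a4. Leaving out both libraries farthest from the median of Th gave 0.969, 0.841, 0.857, 0.64, 0.963, 0.74 and 0.785 in that order, none past the threshold with 6 libraries.

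With 4 mice per group, the interval at ZT13 spans several-fold for Slc6a3 and En1, and counting adds to it for En1 (3 to 146 counts). The 8 genes share libraries and are not independent evidence of each other.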

Other observations

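Gch1, Anxa1, Sncg, Drd3, Nr4a2, Foxa1, Lmx1a, Lmx1b, Sox6 and Pitx3 were chosen here after their values were seen. Gch1, which starts the synthesis of the cofactor that Th needs, was at 4.64, 3.96, 4.27 and 3.79 CPM in WT mice and 5.06, 6.3, 4.7 and 7.04 CPM in ASIC1a-/- mice at ZT1, without overlap between the genotypes. It did not pass the test over all genes (log2 fold change 0.47, SE 0.13, adjusted p = 0.68 by edgeR's quasi-likelihood test). Anxa1, an annexin that midbrain dopamine neurons and other cells express, did not overlap between genotypes at ZT1 either (log2 fold change 1.44, SE 0.336, adjusted p = 0.68). Nor did Sncg, which was higher in ASIC1a-/- mice (0.20, SE 0.0653), and Drd3, a dopamine receptor, which was lower (-0.26, SE 0.217). The share of all genes without overlap was not computed, so nothing is read from these separations.

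Of the 7 transcription factors tested at ZT13, 6 had a log2 fold change of ASIC1a-/- against WT above 0. It was 0.28 for Nr4a2 (SE 0.121) and 0.34 for Foxa1, a forkhead factor of dopamine progenitors (SE 0.162). For Lmx1a, a homeodomain factor of the same lineage, it was 0.33 (SE 0.166), and for Lmx1b 0.29 (SE 0.139). Sox6 went the other way (-0.07, SE 0.0382), as did Sncg of the midbrain list (-0.14, SE 0.0659). None passed the test over all genes (adjusted p = 1 each by edgeR's quasi-likelihood test). Pitx3, a factor of midbrain dopamine neurons, stayed under 1 CPM in each library and was not tested. Its highest library, ASIC1a-/- replicate 2 at ZT1 (0.756 CPM), was also the highest for Slc6a3 and En1.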
